A study of Mus musculus with 30 samples.

Results

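Retinoic acid metabolism and signalling were followed through 9 genes: Cyp26a1, which encodes an enzyme that breaks retinoic acid down, the synthesis genes Rdh10 and Aldh1a2, the binding protein genes Crabp1 and Crabp2, the receptor genes Rara, Rarb and Rarg, and the uptake gene Stra6. They were found by gene symbol in the platform annotation and are read by 11 of the 45101 probe sets on the array, 2 each for Rdh10 and Rarg and 1 for each of the other 7 genes. The cells were mouse embryonic stem (ES) cells mutant for both alleles of Jmj (Jmj -/-, null), the gene now called Jarid2, and ES cells with floxed Jmj alleles (Jmj fl/fl), labelled wild type and written Fl/Fl. Jarid2 encodes a partner of the Polycomb complex PRC2. The labels do not say how many clones were used or whether the null cells were made from the Fl/Fl cells. Both genotypes were differentiated by removing LIF, the cytokine that keeps mouse ES cells undifferentiated, and RNA was taken on days 0, 2, 4, 6 and 8. The null cells gave 3, 5, 5, 5 and 2 arrays on those days, and the Fl/Fl cells gave 2 arrays on each day, 30 arrays in all. The labels call the replicates biological without saying that they were separate cultures, so p-values measure only the spread between these arrays, which may be technical.

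Retinoic acid is made from vitamin A in a pair of oxidation steps. RDH10 carries out the first, from retinol to retinaldehyde, and ALDH1A2 the second, from retinaldehyde to retinoic acid. CYP26A1 removes retinoic acid from tissues in which it must be kept low, and in the gastrulating mouse embryo its gene is transcribed in the primitive streak and the newly formed mesoderm. The receptors RARα, RARβ and RARγ act as partners of RXR proteins on DNA. In many cell types Cyp26a1 and Rarb are themselves switched on by retinoic acid through receptor sites in their promoters.

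A repeat of the kind these receptors bind lies beside the start of both genes, and it is shown because Cyp26a1 and Rarb gave very different values in these cells. Of the 9 genes, 7 had at least 1 RefSeq promoter window (mouse build GRCm38.p6, 250 bases before to 50 after a start, 14 windows in all). Each stretch printed ends just before the start of its gene and is read on the gene's strand, at chr19:37697716-37697807 (plus strand) for Cyp26a1 and chr14:16575477-16575589 (minus strand) for Rarb. Capitals mark the 2 half-sites of a direct repeat.
Cyp26a1: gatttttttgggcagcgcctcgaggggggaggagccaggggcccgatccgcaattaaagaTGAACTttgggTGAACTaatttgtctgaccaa
Rarb: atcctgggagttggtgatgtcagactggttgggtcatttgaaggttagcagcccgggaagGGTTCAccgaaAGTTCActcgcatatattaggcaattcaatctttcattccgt
A half-site was AGGTCA, or else AGTTCA, or else GGGTCA, or else GGTTCA, and windows were searched on both strands for 2 of them in the same direction with a fixed spacer. With a spacer of 5 bases the repeat was found in 2 of the 14 windows, 1 of Cyp26a1 and 1 of Rarb, and in 32 of all 32851 windows (0.0974%). It lies 32 to 16 bases before the start of Cyp26a1, read on the opposite strand, and 53 to 37 bases before that of Rarb, read on the gene's own strand. With a spacer of 1 base the repeat was in 0.222% of all windows, with 2 bases in 0.268%, and in either case in 0 of these 14. Such a match describes the letters and does not show binding.

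The arrays need a description before the values. The 20 null arrays fell into 3 sets by Eif2s3y, a gene on the Y chromosome: 11 arrays read 594 to 981, 5 read 217 to 365 and 4 read 11 to 16, against 130 to 234 in the 10 Fl/Fl arrays. They are called the high, middle and low sets here. Days 2, 4 and 6 held 3, 1 and 1 arrays of the high, middle and low sets, day 0 held 2 high and 1 middle, and day 8 held 1 middle and 1 low. The actin control, read at both ends of its transcript, gave a 3'/5' quotient, which is higher in degraded RNA, between 1.29 and 1.43 in the high set, 1.56 to 2.02 in the middle set, 1.54 to 1.68 in the low set and 1.48 to 2.04 in Fl/Fl. Another gene, Meg3, read 21 to 88 on the high arrays, 287 to 1902 on the other null arrays and 653 to 2579 in Fl/Fl. What sets these arrays apart was not tested, and results that differ by set are given with and without the high set. Jarid2 read 383 to 4082 in null and 319 to 3340 in Fl/Fl over all days, and it was called higher in null at day 4 (1.88-fold, adjusted p = 0.0149) and day 6 (1.86-fold, adjusted p = 0.0186). No source used here says whether its probes read the part that was deleted, so its level checks no label. The 8 ES cell markers summed to 44690 to 59053 in null and 56900 to 61602 in Fl/Fl at day 0, and to 1192 to 1626 in null and 2455 to 5187 in Fl/Fl at day 8. All 8 fell by day 8 in each genotype.

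Values are intensities on a linear scale. Differences are given as log2 of the intensity plus 4, so folds of dim genes are understated. A probe set with no group mean at 50 or above is described as near the floor, and the median probe set read 10 or 11 on every array. A gene was called where its p, adjusted over all 18194 genes tested, was under 0.05. These cells are a mixed population, so fewer cells with a transcript and less transcript per cell cannot be told apart.

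Cyp26a1 rose 1 sampling step later in null cells, and at day 6 its level there was not told apart from that in Fl/Fl. It read 4, 4 and 5 in null at day 0, against 5 and 4 in Fl/Fl. At day 2 the null arrays read 4, 3, 3, 5 and 5, against 4 and 5 in Fl/Fl. Both genotypes were at the floor on both days. At day 4 the null arrays still read 4, 5, 5, 4 and 5, against 490 and 703 in Fl/Fl. The groups did not overlap, and the difference was -6.11 ± 0.85 (SE), a 68.8-fold lower value in null (adjusted p = 5.49e-05). At day 6 the null arrays read 1999, 1474, 587, 435 and 510, against 1190 and 1105 in Fl/Fl. The null arrays lay on both sides of the Fl/Fl pair, and the difference was -0.47 (95% interval -2.23 to 1.29, adjusted p = 1). At day 8 the null arrays read 1413 and 22, against 181 and 108 in Fl/Fl. The null pair lay on either side of Fl/Fl, so the difference of 0.42 (adjusted p = 1) was decided by which array was kept: it was -2.47 without null replicate 1 (adjusted p = 0.0203) and 3.30 without null replicate 2 (adjusted p = 0.000518).

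**Figure D1:**
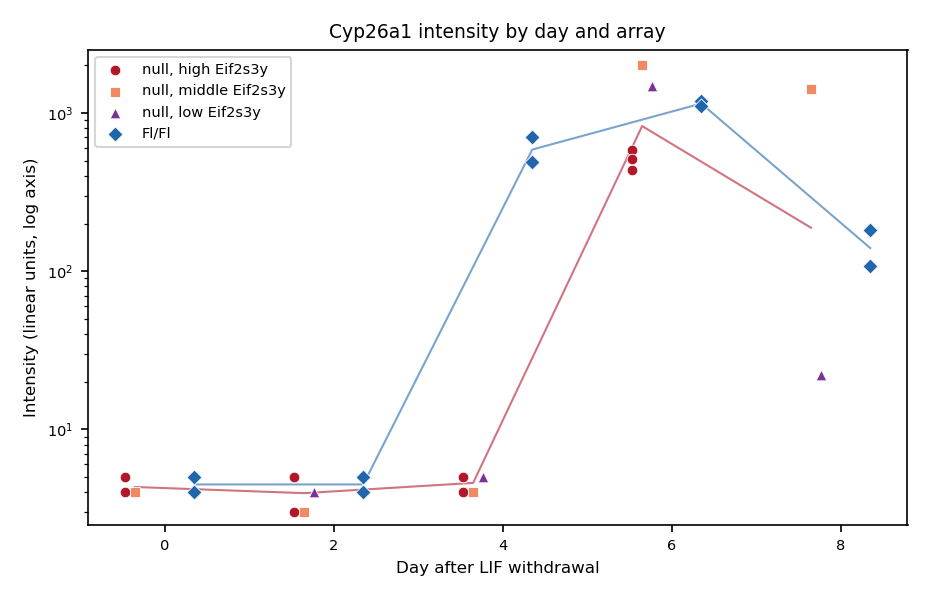
Cyp26a1 intensity on each array (log axis) against the day after LIF withdrawal; null arrays are drawn to the left, marked by their Eif2s3y set, and Fl/Fl arrays to the right, and lines join the group means of log2(intensity + 4), turned back to intensity. At day 4 all 5 null arrays lie at 4 or 5 and the Fl/Fl arrays at 490 and 703, and at day 6 the null arrays lie between 435 and 1999.

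The rise of the gene fell between days 4 and 6 in null and between days 2 and 4 in Fl/Fl. In null, the change from day 2 to day 4 was 0.11 (adjusted p = 1) and that from day 4 to day 6 was 6.60, a 96.7-fold rise (adjusted p = 5.46e-07). In Fl/Fl, the change from day 2 to day 4 was 6.12, a 69.7-fold rise (adjusted p = 0.000436), and that from day 4 to day 6 was 0.96 (95% interval -1.14 to 3.07, adjusted p = 0.866). The steps themselves differed between the genotypes, null minus Fl/Fl, by -6.01 for days 2 to 4 (adjusted p = 0.0131) and by 5.63 for days 4 to 6 (adjusted p = 0.0109). The adjusted p of the earlier step lay above the threshold without Fl/Fl day 2 replicate 1 (0.0635) or Fl/Fl day 4 replicate 2 (0.0631). That of the later step did so without Fl/Fl day 4 replicate 2 (0.0626), Fl/Fl day 6 replicate 1 (0.052) or Fl/Fl day 6 replicate 2 (0.0585).

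Set beside each other with a lag of 1 sampling step, null at day 6 differed from Fl/Fl at day 4 by 0.49 (95% interval -1.27 to 2.25, adjusted p = 1). The interval is wide, so the levels are not shown to be alike. The highest group mean fell on day 6 in both genotypes, at 1001 ± 699 in null (SD, n = 5) and 1148 ± 60.1 in Fl/Fl (SD, n = 2). The decline from day 6 to day 8 was -2.11 in null (adjusted p = 0.133) and -3.00 in Fl/Fl (adjusted p = 0.123), and neither passed the test. In Fl/Fl the day 8 arrays (181 and 108) lay below the day 6 arrays (1190 and 1105), without overlap. The tests used a spread pooled over all groups, which includes the null day 8 arrays at 1413 and 22. The Fl/Fl decline passed where either null day 8 array was left out (adjusted p = 0.000404 in each case). Without null day 8 replicate 1 the null change was -5 (adjusted p = 5.28e-07), and without null day 8 replicate 2 it was 0.77 (adjusted p = 0.727).

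The null level at day 6 differed by Eif2s3y set. At day 6 the middle array read 1999, the low array 1474 and the 3 high arrays 435 to 587. With the high set alone, null was lower than Fl/Fl at day 6 (-1.17, adjusted p = 0.000972), and without the high set the difference was 0.58 (adjusted p = 1). The fit with the high set alone holds no null day 8 array, while the fit without that set keeps those at 1413 and 22. The pooled spread therefore differs between these fits, and their p-values cannot be set against each other. The delay itself was seen in every set, since all 5 null arrays of day 4 read 4 or 5. The day 4 difference was -6.09 with the high set alone. Without the high set, the differences of the steps kept their size but did not pass (-5.94 for days 2 to 4, adjusted p = 0.363, and 6.70 for days 4 to 6, adjusted p = 0.224).

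Markers of the primitive streak and early mesoderm were counted beside Cyp26a1, because that is where the embryo transcribes it. Of 12 markers 11 were measured, with Tbx6 near the floor and T not analysed here. At day 4 their summed intensity was 299 to 921 in null and 4523 to 4933 in Fl/Fl. On that day 7 of the 11 were lower in null, where 11.6% of all genes were called in either direction. Eomes had already risen in null between days 2 and 4, from a mean of 58.2 to 388.4. At day 6, 0 of the 11 were called, against 9.93% of all genes. The sums on that day were 4061 to 18611 in null and 4721 to 6520 in Fl/Fl. At day 8 they were 10546 and 884 in null and 956 and 569 in Fl/Fl. The null day 6 array with the highest sum, 18611, was also the one with the highest Cyp26a1, and the null day 8 array with 10546 was the one at 1413. Visceral endoderm markers summed to 325 to 754 in null and 468 to 571 in Fl/Fl at day 4, with 8 of 12 near the floor, Afp, Apoa1, Hnf4a and Sox17 among them. Of the 12, Gata6 alone was called on that day, lower in null (11.6% of all genes were called). Gata6 rose between days 4 and 6 in null and between days 2 and 4 in Fl/Fl. The part of these cell types in the Cyp26a1 result was not tested.

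The 5 genes whose group means followed Cyp26a1 most closely over the 10 groups, among 7858 genes bright enough to compare, were Aplnr (Pearson's r = 0.998), Pdgfb (0.994), Rspo3 (0.983), Snai1 (0.981) and Mixl1 (0.98). Aplnr encodes the apelin receptor, Pdgfb a growth factor, Rspo3 a secreted enhancer of Wnt signalling, and Snai1 and Mixl1 transcription factors of gastrulation. Aplnr read 4 on every null array of day 4, against 309 and 401 in Fl/Fl, and 129 to 2036 in null at day 6, against 580 and 1000 in Fl/Fl. Mixl1 read 5 to 27 in null at day 4, against 1964 and 2110 in Fl/Fl, and 1312 to 5127 in null at day 6, against 1658 and 1843 in Fl/Fl. Aplnr and Mixl1 are also among the streak and mesoderm markers counted above. The genes share the same 30 arrays, and the correlation is a description.

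**Figure D2:**
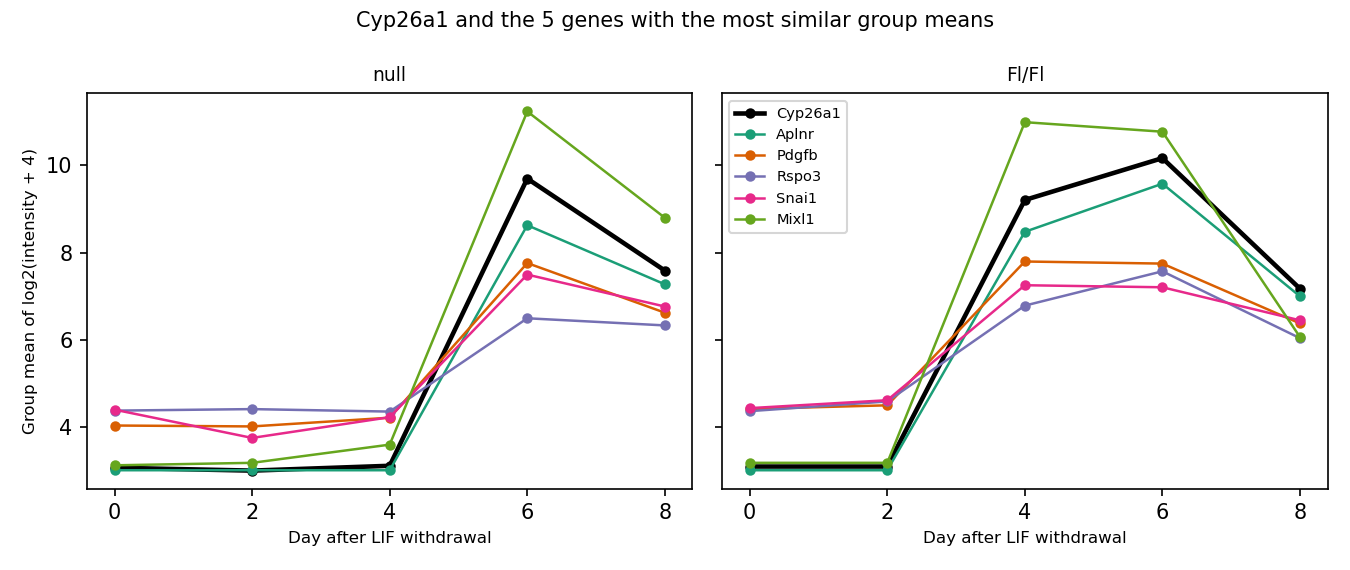
Group means of log2(intensity + 4) against the day after LIF withdrawal for Cyp26a1 (black) and the 5 genes most like it, null on the left and Fl/Fl on the right. In null each line rises most between days 4 and 6, and in Fl/Fl between days 2 and 4. In null Snai1 (3.742 to 4.218), Mixl1 (3.17 to 3.588) and Pdgfb (4.006 to 4.207) already rise a little between days 2 and 4.

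Rdh10, the first enzyme of synthesis, also had its called rise 1 sampling step later in null. Its brighter probe set, 1426968_a_at, read 10, 64 and 11 in null at day 0, against 79 and 75 in Fl/Fl. At day 2 it read 41, 52, 32, 25 and 30 in null, against 112 and 154 in Fl/Fl. Each null array was lower than each Fl/Fl array on both days, but neither difference passed the test (-1.74 and -1.80, adjusted p = 0.112 and 0.1). The day 0 difference was -2.48 (adjusted p = 0.00474) without null day 0 replicate 2, the array at 64, whose removal also took day 2 (-1.80, adjusted p = 0.02) and day 6 (-1.14, adjusted p = 0.0469) past the threshold. At day 4 the null arrays read 49, 60, 76, 62 and 67, against 960 and 872 in Fl/Fl. This was 13.9-fold lower in null (-3.80 ± 0.48, SE, adjusted p = 2.03e-05). At day 6 the null arrays read 230, 652, 371, 318 and 307, against 731 and 838 in Fl/Fl, and at day 8 they read 263 and 860, against 418 and 384 in Fl/Fl. The day 6 difference of -1.14 (adjusted p = 0.159) and the day 8 difference of 0.25 (adjusted p = 1) did not pass.

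In null, Rdh10 rose 5.39-fold between days 4 and 6 (2.43, adjusted p = 7.8e-05). The null change from day 2 to day 4 was 0.77 (means of 62.8 at day 4 and 36 at day 2, 95% interval 0.01 to 1.52), with an unadjusted p of 0.0479 in limma's test and an adjusted p = 0.307. In Fl/Fl it rose 6.79-fold between days 2 and 4 (2.76, adjusted p = 0.00321) and its highest group mean, 916, fell on day 4. The later step differed between the genotypes by 2.65 (adjusted p = 0.0441), a call lost in 23 of the 30 fits that left out 1 array each (any of the 10 Fl/Fl arrays or 13 of the null arrays, adjusted p up to 0.189, value 2.43 to 2.81), with a pseudocount of 1 (adjusted p = 0.0581) and over all probe sets (adjusted p = 0.0526), and the earlier step by -2.00 (adjusted p = 0.224). The dimmer probe set, 1460632_at, gave 25.2 ± 5.76 in null (SD, n = 5) and 320.5 ± 30.4 in Fl/Fl (SD, n = 2) at day 4, a difference of -3.49 (adjusted p = 4.3e-05 over all probe sets). It also gave a rise of 2.11 in null between days 4 and 6 (adjusted p = 3e-04) and of 2.74 in Fl/Fl between days 2 and 4 (adjusted p = 0.00321), so both probe sets placed the rise at the same steps. Its later step did not pass the test of the difference (2.11, adjusted p = 0.141). At day 0 the dimmer probe set read 19, 14 and 18 in null, against 20 and 26 in Fl/Fl (-0.36, unadjusted p = 0.48 in limma's test). Null day 0 replicate 2, at 64 on the brighter probe set, was the lowest null array on the dimmer, at 14. The larger day 0 difference was thus seen on the brighter probe set only. On the dimmer, days 2 and 6 gave -1.34 and -1.38 (adjusted p = 0.28 and 0.0729).

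Aldh1a2, the enzyme of the final step, rose later than Rdh10 in both genotypes and was lower in null at days 6 and 8. It read 8, 7 and 7 in null at day 0 and 7 on every null array of days 2, 4 and 6, against 7 on every Fl/Fl array of days 0, 2 and 4. At day 6 all 5 null arrays read 7, against 26 and 45 in Fl/Fl (-1.80 ± 0.16, SE, adjusted p = 2.7e-07). At day 8 it read 15 and 35 in null, against 65 and 62 in Fl/Fl (-1.31 ± 0.20, SE, adjusted p = 0.000317). The null pair lay below the Fl/Fl pair, and the difference was -0.79 without null day 8 replicate 1 and -1.83 without null day 8 replicate 2. In null it rose between days 6 and 8 (1.31, adjusted p = 4.55e-05) and in Fl/Fl between days 4 and 6 (1.80, adjusted p = 8.06e-06), and the step from day 4 to day 6 differed by -1.80 (adjusted p = 8.9e-05). Without the high set of null arrays the day 8 difference kept its size (-1.31, adjusted p = 0.0619), as did the null rise between days 6 and 8 (1.31, adjusted p = 0.0673), but neither passed. Fitted to only the groups compared, the day 8 difference (adjusted p = 0.76) and the steps in null (adjusted p = 0.164) and in Fl/Fl (adjusted p = 0.156) did not pass either. The intensities are low throughout, so these differences are between values a few times the floor. The spread behind the tests of Aldh1a2 was pooled over all groups, including those in which every array read 7. Its SE and p-values can therefore understate the spread of arrays above the floor. With 1 array left out the day 6 difference ran from -2.16 to -1.45.

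Within each genotype Cyp26a1 and Rdh10 rose at the same step and Aldh1a2 at the next, by day 8 in null and by day 6 in Fl/Fl. These 3 genes passed limma's F test of the genotype by day interaction, with adjusted p = 0.00604 for Cyp26a1, 0.0165 for Rdh10 and 2.19e-05 for Aldh1a2. The other 6 genes did not, and 4.94% of all genes passed it. Averaged over the days, the 3 were lower in null, with differences of -1.26 for Cyp26a1 (adjusted p = 0.0274), -1.65 for Rdh10 (adjusted p = 3.07e-05) and -0.61 for Aldh1a2 (adjusted p = 1.25e-05). The Cyp26a1 average no longer passed without Fl/Fl day 4 replicate 2 (-1.20, adjusted p = 0.0545) or Fl/Fl day 8 replicate 1 (-1.18, adjusted p = 0.0584). Without null day 8 replicate 2 it was -0.68 and without null day 8 replicate 1 it was -1.83. It did not pass without the high set either (-1.08, adjusted p = 0.324).

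Crabp2, which carries retinoic acid to the receptors, fell in null between days 4 and 6 and was lower in null than in Fl/Fl at day 8. It read 191, 62 and 63 in null at day 0, against 81 and 149 in Fl/Fl, and 139, 192, 80, 112 and 84 in null at day 2, against 194 and 207 in Fl/Fl. At day 4 the null arrays read 204, 156, 82, 102 and 128, all above the 56 and 59 of Fl/Fl, but the difference of 1.10 did not pass (adjusted p = 0.194). At day 6 they read 54, 50, 70, 20 and 28, all below the 107 and 103 of Fl/Fl (-1.29, adjusted p = 0.123). At day 8 they read 126 and 32, against 346 and 390 in Fl/Fl, 5.43-fold lower in null (-2.44 ± 0.60, SE, adjusted p = 0.0296). That call was lost without Fl/Fl day 8 replicate 1 (-2.53, adjusted p = 0.0915), Fl/Fl day 8 replicate 2 (-2.36, adjusted p = 0.197) or null day 8 replicate 2 (-1.51, adjusted p = 0.161), with array weights (-2.44, adjusted p = 0.383) and in a fit to only the groups compared (adjusted p = 0.732).

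In null, Crabp2 fell 2.95-fold between days 4 and 6 (-1.56, adjusted p = 0.0074). In Fl/Fl the change between days 2 and 4 was -1.73 (adjusted p = 0.0731), and over the whole course it rose 3.26-fold (1.70, adjusted p = 0.0333). The Fl/Fl rise did not pass without day 0 replicate 1 (1.28, adjusted p = 0.238), day 8 replicate 1 (1.79, adjusted p = 0.0909) or day 8 replicate 2 (1.62, adjusted p = 0.135). The change between days 4 and 6 differed by -2.39 between the genotypes and did not pass (adjusted p = 0.0992). Averaged over the days Crabp2 was lower in null (-0.73, adjusted p = 0.0308), a call lost in 11 of the 30 fits that left out 1 array each (adjusted p up to 0.081, without null day 8 replicate 2, where it was -0.55). Without the high set it was -0.27 (adjusted p = 0.526).

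Crabp1, the other cellular binding protein, showed no genotype difference that passed the test on any day. It read 210, 72 and 83 in null at day 0, against 137 and 87 in Fl/Fl, and 79 and 20 in null at day 8, against 31 and 48 in Fl/Fl. At day 2 it read 123, 131, 88, 93 and 80 in null, against 85 and 76 in Fl/Fl, and at day 6 87, 36, 24, 52 and 47 in null, against 50 and 28 in Fl/Fl. The groups overlapped on each of these days. At day 4 the null arrays read 65, 45, 101, 78 and 80, against 31 and 50 in Fl/Fl, with overlapping groups (0.80, 95% interval -0.17 to 1.76, adjusted p = 0.355). Over the course it fell in null (-1.33, adjusted p = 0.0485), a call lost in 24 of the 30 fits that left out 1 array each, and in Fl/Fl the change was -1.41 (adjusted p = 0.0562). The null value was -0.44 without null day 8 replicate 2 (adjusted p = 0.754), -2.23 without null day 8 replicate 1 (adjusted p = 0.00404) and -0.87 without null day 0 replicate 1 (adjusted p = 0.232).

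Stra6, the cell surface receptor that takes up retinol, read 6 to 12 over all 30 arrays, near the floor. Its day differences lay between -0.17 and 0.11, each with adjusted p above the threshold.

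**Figure D3:**
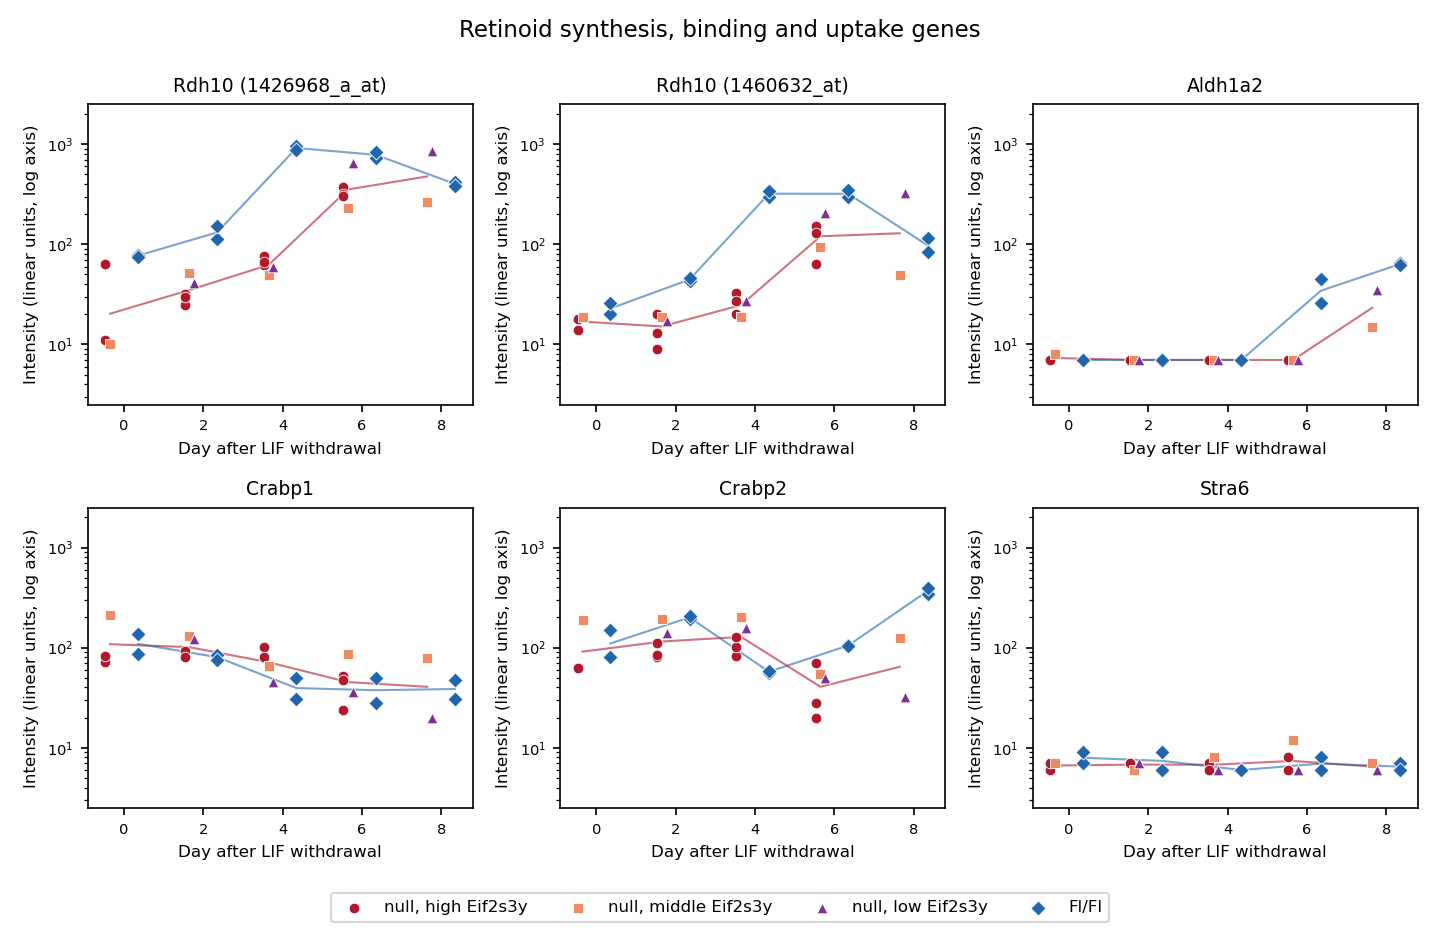
Intensity on each array (log axis) against the day after LIF withdrawal for Rdh10 (both probe sets), Aldh1a2, Crabp1, Crabp2 and Stra6; null arrays are drawn to the left and Fl/Fl arrays to the right, and lines join the group means of log2(intensity + 4), turned back to intensity. Rdh10 climbs at day 6 in null (230 to 652) and at day 4 in Fl/Fl (960 and 872), and Aldh1a2 at day 8 in null (15 and 35) and at day 6 in Fl/Fl (26 and 45).

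Among the receptors, Rarb stayed at the floor while Rara and Rarg were present from the start. Rarb read 5 or 6 on each of the 30 arrays, including the null day 6 array on which Cyp26a1 read 1999 and the Fl/Fl arrays on which it read 1190 and 1105. Of the genes whose promoters are printed above, Cyp26a1 rose and Rarb was not seen above the floor by its probe set.

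Rarg, whose receptor is present in undifferentiated mouse ES cells, fell in both genotypes. Its brighter probe set, 1419415_a_at, read 773, 618 and 535 in null at day 0, against 528 and 566 in Fl/Fl, and 165 and 286 in null at day 8, against 288 and 298 in Fl/Fl. At day 2 it read 469, 508, 398, 429 and 385 in null, against 340 and 417 in Fl/Fl, with overlap. From day 0 to day 8 it fell 2.89-fold in null (-1.53, adjusted p = 5.1e-06) and 1.85-fold in Fl/Fl (-0.89, adjusted p = 0.00347). At day 4 it read 328, 263, 255, 256 and 285 in null, against 187 and 206 in Fl/Fl, and at day 6 it read 169, 210, 121, 164 and 184 in null, against 247 and 254 in Fl/Fl. The null arrays were above Fl/Fl at day 4 and below at day 6, without overlap, while neither difference passed (0.48, adjusted p = 0.109, and -0.57, adjusted p = 0.0565). The day 4 difference passed without either null day 8 array (adjusted p = 0.0491 in each case). The day 6 difference passed without null day 0 replicate 1 (adjusted p = 0.046), null day 6 replicate 2 (adjusted p = 0.0246) or either null day 8 array (adjusted p = 0.0193 in each case). Centring the arrays or quantile normalization also brought the day 4 difference past the threshold, at 0.63 (adjusted p = 0.0109) and 0.60 (adjusted p = 0.0149).

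The step of Rarg from day 4 to day 6 differed between the genotypes. It was -0.71 in null (adjusted p = 0.00135) and 0.35 in Fl/Fl (adjusted p = 0.586), a difference of -1.06 (adjusted p = 0.0372). That call was lost in 7 of the 30 fits that left out 1 array each (adjusted p up to 0.18), namely the 4 Fl/Fl arrays of days 4 and 6, null day 4 replicates 1 and 5 and null day 6 replicate 4, and its value stayed between -1.14 and -0.94. The 8 ES cell markers summed to 15417 to 20426 in null and 9296 to 10041 in Fl/Fl at day 4, and to 4647 to 9706 in null and 1645 to 2097 in Fl/Fl at day 6. Their part in the Rarg values was not tested. The dimmer probe set, 1419416_a_at, differed by -1.23 at that step (adjusted p = 0.971). On it the null arrays split by set: at day 0 the high arrays read 496 and 569 and the middle array 109, against 194 and 84 in Fl/Fl, and at day 4 the high arrays read 167, 184 and 188 and the other 2 read 38 and 70, against 46 and 73 in Fl/Fl. Its null minus Fl/Fl differences did not pass on any day, and over the course it fell by 2.95 on the log2 scale in null (adjusted p = 0.00199), against a change of -0.48 in Fl/Fl (adjusted p = 0.775).

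Rara, the most widely expressed receptor, was higher in null averaged over the days, and at day 0 its null values split by Eif2s3y set. It read 148, 387 and 352 in null at day 0, against 165 and 114 in Fl/Fl, where 387 and 352 came from the high set and 148 from the middle set. At day 2 it read 124, 150, 189, 224 and 152 in null, against 106 and 122 in Fl/Fl, a pair that lay below every null array (0.52, adjusted p = 0.587, or 0.69 with the high set alone, adjusted p = 0.0383). At day 4 it read 141, 121, 163, 186 and 132 in null, against 70 and 99 in Fl/Fl, with no overlap (0.79, adjusted p = 0.0691, or 0.0116 without null day 0 replicate 1). The day 0 difference was 0.97 (adjusted p = 0.122), or 1.40 without null day 0 replicate 1 (adjusted p = 0.00203). At day 6 it read 112 to 139 in null, against 123 and 122 in Fl/Fl, and at day 8 125 and 86 in null, against 119 and 123 in Fl/Fl. At days 6 and 8 the differences were 0.02 and -0.21 (adjusted p = 1 and 0.973). Averaged over the days the difference was 0.42 (adjusted p = 0.0248), or 0.14 without the high set (adjusted p = 0.451). The average also missed the threshold without Fl/Fl day 0 replicate 2 (0.0654), Fl/Fl day 2 replicate 1 (0.0539), Fl/Fl day 4 replicate 1 (0.0689) or null day 8 replicate 1 (0.0709), which are adjusted p-values. Over the course Rara fell in null (-1.36, adjusted p = 0.00119), with a change of -0.50 without the high set (adjusted p = 0.223), and in Fl/Fl the change was -0.18 (adjusted p = 0.806). The high set had the low actin ratios and low Meg3 values given above. The part of these features in the Rara and Rarg values was not tested.

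**Figure D4:**
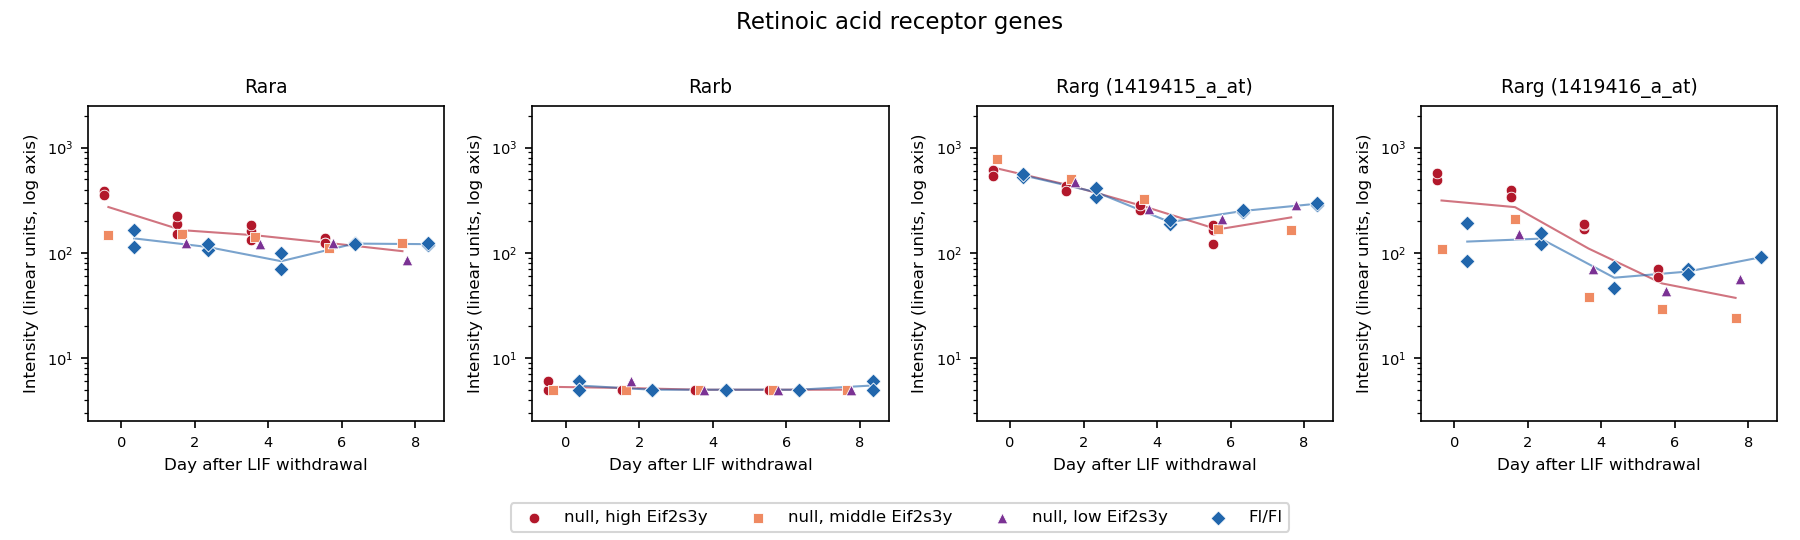
Intensity on each array (log axis) against the day after LIF withdrawal for Rara, Rarb and both Rarg probe sets; null arrays are drawn to the left and Fl/Fl arrays to the right, and lines join the group means of log2(intensity + 4), turned back to intensity. Rarb lies at 5 or 6 throughout, and on the dimmer Rarg probe set the high null arrays of day 0 (496 and 569) stand above all others.

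Counted over the 9 genes, 0 were called between null and Fl/Fl at day 0, where 1.18% of all 18194 genes were called, and 0 at day 2, where 0.621% were. At an unadjusted p under 0.05, limma gave 2 of the 9 at day 0 (11.7% of all genes), 1 at day 2 (9.65%), and on the later days 5 (day 4, 22.5%), 4 (day 6, 21.1%) and 2 (day 8, 14.8%). At day 4 Cyp26a1 and Rdh10 were called, 2 of 9 against 11.6% of all genes. At day 6 Aldh1a2 alone was called, against 9.93%, and at day 8 Aldh1a2 and Crabp2, against 2.51%. Averaged over the days 5 of the 9 were called, against 23.2% of all genes: Rara was higher in null (7.76% of all genes were) and the other 4, Cyp26a1, Rdh10, Aldh1a2 and Crabp2, were lower (15.5%). The median difference of the 9 genes was 0.11 at day 4 and -0.47 at day 6, and that of all genes was 0 on both days.

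Counted by step, the first, from day 0 to day 2, called 0 of the 9 in null (5.41% of all genes) and 0 in Fl/Fl (3.15%), with 2 in null (16.2% of all genes) and 1 in Fl/Fl (13.6%) at an unadjusted p under 0.05. From day 2 to day 4, 1 was called in null (Rarg, down; 4.35% of all genes) and 3 in Fl/Fl (Cyp26a1 and Rdh10 up, Rarg down; 10.1%). From day 4 to day 6, 4 were called in null (Cyp26a1 and Rdh10 up, Crabp2 and Rarg down; 13% of all genes) and 1 in Fl/Fl (Aldh1a2, up; 3.46%). From day 6 to day 8 Aldh1a2 alone was called, in null (9.81% of all genes) and in Fl/Fl (3.22%). The Fl/Fl call of that step, 0.82, was lost without Fl/Fl day 6 replicate 1 (0.46, adjusted p = 0.468) or either Fl/Fl day 8 array (0.78 and 0.85, adjusted p = 0.0992 and 0.119).

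The difference of the steps was called for 1 of the 9 between days 2 and 4 (Cyp26a1; 1.06% of all genes) and for 4 of the 9 between days 4 and 6 (Cyp26a1, Rdh10, Aldh1a2 and Rarg; 2.08%). Without the high set the differences between days 4 and 6 were 2.97 for Rdh10 (adjusted p = 0.159), -1.80 for Aldh1a2 (adjusted p = 0.105) and -0.98 for Rarg (adjusted p = 0.317), past the threshold in no case. In the comparison lagged by 1 step, null at day 6 against Fl/Fl at day 4, 0 of the 9 were called (0.473% of all genes) and 1 had an unadjusted p under 0.05 (9.21% of all genes). That gene was Rdh10, 2.58-fold lower in null at day 6 than in Fl/Fl at day 4 (-1.37, 95% interval -2.37 to -0.36, adjusted p = 0.278). From day 0 to day 8, 6 of the 9 were called in null (33.4% of all genes) and 5 in Fl/Fl (33.6%).

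**Figure D5:**
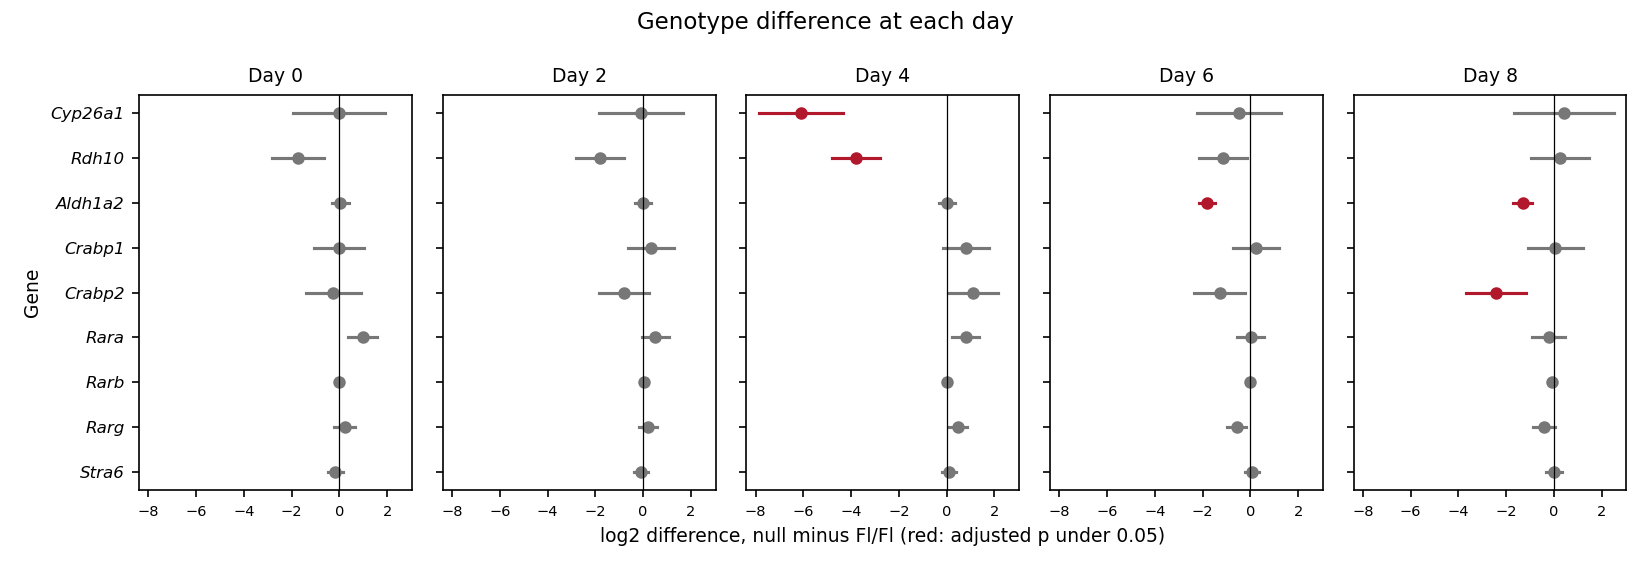
Difference of null minus Fl/Fl on the log2 scale for each of the 9 genes at each day, with 95% intervals from the fit over all 30 arrays; red marks an adjusted p under 0.05. The red points are Cyp26a1 (-6.11) and Rdh10 (-3.80) at day 4, Aldh1a2 (-1.80) at day 6, and Aldh1a2 (-1.31) and Crabp2 (-2.44) at day 8.

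Fibroblast and feeder markers were lower in null on the days on which Aldh1a2 and Crabp2 differed. All 12 were measured and 3 were near the floor. Their sum at day 6 was 221 to 362 in null and 2624 to 2995 in Fl/Fl, and at day 8 it was 703 and 1633 in null and 12230 and 15915 in Fl/Fl. On day 6, 6 of the 12 were lower in null and on day 8, 7 were, with 0 higher on either day. Of all genes 9.93% and 2.51% were called on those days. Col1a1 was also called lower in null at days 0 and 4, where neither Aldh1a2 nor Crabp2 was called. Their part in the Aldh1a2 and Crabp2 results was not tested.

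The rest of the retinoid pathway was mostly near the floor. Of a list of 28 further genes 23 were measured, and 16 of these reached no group mean of 50. Cyp26b1, the other widely studied retinoic acid hydroxylase, read 8 or 9, and the retinaldehyde dehydrogenase genes Aldh1a1 and Aldh1a3 read 5 or 6 and 7 to 14. Dhrs3, which turns retinaldehyde back into retinol, read 16 to 83. At day 4 1 of the 23 was higher in null and 1 lower, at day 6 0 and 1, and at day 8 0 and 0. On those days 11.6%, 9.93% and 2.51% of all genes were called.

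On single days the genes of this list called between null and Fl/Fl were Adh5, Nrip1 and Aldh1a1. Adh5, an alcohol dehydrogenase with many substrates, read 4154, 4385, 5046, 4976 and 5150 in null at day 4, against 3090 and 3783 in Fl/Fl (0.47, adjusted p = 0.00114), and it was also higher at day 2 (0.40, adjusted p = 0.0345). Nrip1, a receptor corepressor, read 117, 269, 242, 227 and 248 in null at day 6, against 560 and 581 in Fl/Fl (-1.41, adjusted p = 0.0428). The call for Aldh1a1 at day 4 was between 5 on every null array and 6 in Fl/Fl, a step of 1 unit at the floor. Of the RXR partners, Rxrb read 207 to 483 and fell over the course in null (-0.63, adjusted p = 0.0148) and in Fl/Fl (-0.89, adjusted p = 0.00239). For Rxra the difference of day 8 minus day 0 was 0.55 in null (adjusted p = 0.295), and in Fl/Fl it rose by 1.30 (adjusted p = 0.0195), without a test between the genotypes. Rxrg read 6 to 26. Rdh11, a retinal reductase, rose between days 0 and 2 in null (0.90, adjusted p = 0.0231) and in Fl/Fl (1.37, adjusted p = 0.0171), and it fell between days 6 and 8 in null (-0.92, adjusted p = 0.0319). Fabp5, a fatty acid binding protein that also binds retinoic acid, fell in null between days 4 and 6 (-0.49, adjusted p = 0.0385) and between days 6 and 8 (-1.14, adjusted p = 0.00138). At day 8 it read 1129 and 634 in null, against 1546 and 1450 in Fl/Fl, without overlap, but that difference did not pass (-0.82, adjusted p = 0.0831). Other calls within a genotype or in the average over days were of Adh4, Adh7, Ttr, Rbp2 and Rbp3, all near the floor, and of Adh5, Nrip1 and the genes above.

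Genes known as targets of retinoic acid in other settings were called in both directions. Of a list of 22 genes 19 were measured, 12 of them near the floor. The median null minus Fl/Fl difference was 0 at days 4, 6 and 8, as it was over all genes, but with most of the list near the floor it says little about the 7 genes above it. At day 4 0 of the 19 were higher and 3 lower in null, at day 6 1 and 2, and at day 8 1 and 1. The shares of all genes called on those days were 11.6%, 9.93% and 2.51%. Zfp703, which encodes a zinc finger protein, read 5 on every null array of day 4, against 112 and 126 in Fl/Fl (-3.77, adjusted p = 5.03e-07). At day 6 it read 122, 289, 81, 55 and 66 in null, against 445 and 474 in Fl/Fl (-2.14, adjusted p = 0.000411). Bhlhe40, a transcription factor of the hypoxia and clock responses, read 95, 203, 98, 64 and 65 in null at day 4, against 1069 and 1092 in Fl/Fl (-3.44, adjusted p = 5.54e-05). Zfp703 and Bhlhe40 rose in null between days 4 and 6 and in Fl/Fl between days 2 and 4, as did Cyp26a1. Zfp703 was called up again at the next step of each genotype, where Cyp26a1 had no called rise. In null its mean went from 122.6 at day 6 to 268.5 at day 8. In Fl/Fl it went from 119 at day 4 to 459.5 at day 6. Bhlhe40 in null had already risen between days 2 and 4 (1.41, adjusted p = 0.0256).

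Other targets kept other times. Tgm2, a transglutaminase, read 24, 55, 45, 65 and 45 in null at day 6, against 303 and 398 in Fl/Fl (-2.85, adjusted p = 0.000491), and at day 8 it read 58 and 457 in null, against 501 and 541 in Fl/Fl. Lefty1, a secreted Nodal inhibitor, was higher in null at day 6, where it read 705, 924, 455, 406 and 439, against 192 and 225 in Fl/Fl (1.40, adjusted p = 0.0275), and at day 8, with 373 and 114 in null, against 28 and 29 in Fl/Fl (2.70, adjusted p = 0.00183). The other gene called at day 8, Tshz1, a zinc finger gene near the floor, had a mean of 18.5 in null and 42 in Fl/Fl (2.01-fold lower, adjusted p = 0.0393). In the average over days 2 of the 19 were higher in null (7.76% of all genes were) and 5 were lower (15.5%). The higher ones were Meis1 (0.70, adjusted p = 0.0109) and Gbx2 (0.79, adjusted p = 0.00937), both homeobox genes and the first near the floor. The lower ones were Tgm2, Zfp703 and Bhlhe40, with Nr2f1 and Tshz1 near the floor. The Hox gene of the list that was called at day 4, Hoxb1, differed between group means of 5 in null and 7 in Fl/Fl, which is at the floor.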

How the data were processed

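RNA of 30 samples was measured on 1 Affymetrix array each, from biotinylated cRNA per the labels' protocols. The authors deposited 1 intensity per probe set and array, linear and in whole numbers. How they normalized or summarized the probes is not stated in any source used here. Array means lay between 331.8 and 363.6 and array 75th percentiles between 82 and 106, and no normalization was added. Similar means do not show that dimmer probe sets are on 1 scale, and calls under other normalizations are given below. The number of arrays limits the precision.

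Of the 45101 probe sets, 34958 name 1 gene. The brightest stood for each of 18194 genes. A mean for each group was fitted to log2(intensity + 4), computed from the deposited values, with limma 3.58.1 (R 4.3.3) over all 30 arrays, with two-sided moderated tests and Benjamini-Hochberg adjustment over all genes. The dimmer probe sets of Rdh10 and Rarg were tested over all 34958. The fit was checked on simulated data. Motifs were searched in RefSeq promoter windows.

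The 9 genes, the further lists and the markers were chosen with earlier results of these data known. Beyond the 9, the rule for naming genes took up to 4 per list and comparison with the smallest adjusted p (named only where called), the RXR, CYP26 and ALDH1A genes and Dhrs3 where measured, and the 5 genes most like Cyp26a1 by Pearson's r over group means, among genes with a group mean of 100 or more. Alternatives changed the pseudocount (1 or 16), the normalization, the filter on dim genes, the probe sets, the array weights, the arrays used and the replicate block.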

Additional observations from a re-analysis of the deposited data

Results flagged for a closer look

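The 5 null arrays of days 2, 4 and 6 were examined for each probe set of the 9 genes that reached 50 on any of them. In 0 of these 20 combinations of probe set and day did an array stand apart from the others by Dixon's criterion. A search for 1 outlying array can miss 2 that deviate together, as Cyp26a1 did at day 6 (1999 and 1474, against 435 to 587 in the high set). The count therefore does not show that the null arrays of a day are alike. The steps of 4 genes differed between the genotypes in limma's test of the difference (null minus Fl/Fl, log2). Cyp26a1 differed by -6.01 between days 2 and 4 (adjusted p = 0.0131) and by 5.63 between days 4 and 6 (adjusted p = 0.0109). Between days 4 and 6 Aldh1a2 differed by -1.80 (adjusted p = 8.9e-05), Rdh10 by 2.65 (adjusted p = 0.0441) and Rarg by -1.06 (adjusted p = 0.0372).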

How the results depend on the processing

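The number of the 9 genes called between null and Fl/Fl depended on the settings more than the day 4 difference of Cyp26a1 did, which kept its direction and passed under all alternatives run (-6.36 to -5.85 with 1 array left out). With array weights 1, 1, 5, 4 and 1 were called at days 0, 2, 4, 6 and 8, beside 1.56%, 3.61%, 23.4%, 28.5% and 0.61% of all genes. With only the high Eif2s3y set of null arrays the counts were 1, 2, 5 and 4 at days 0 to 6, beside 14.3%, 10.5%, 24.5% and 23.1% of all genes, and day 8 has no such array. Under both settings the shares over all genes were thus above those of the fit over all arrays at days 0 to 6. Without that set 1 was called at day 8 (1.48% of all genes) and 2 in the average over days (10.9%). At day 4 quantile normalization gave 4 (12.3% of all genes) and median centring 5 (31.8%), where centring moved the median difference of all genes to 0.146. Without the 40% dimmest genes 1 was called at day 8 (2.74% of the genes kept), where Aldh1a2 had been removed, and with only the groups compared 0 were (1.71% of all genes). With 1 array left out the counts ran from 0 to 1 at days 0 and 2, 2 to 3 at day 4, 1 to 2 at day 6, 1 to 3 at day 8, and 3 to 5 for the average.

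For Cyp26a1, the day 6 difference was -1.17 with the high set alone and 0.58 without it, and null day 6 minus Fl/Fl day 4 was -0.21 with it alone. Without it the differences of the steps were -5.94 (days 2 to 4, adjusted p = 0.363) and 6.70 (days 4 to 6, adjusted p = 0.224). In Fl/Fl the change from day 4 to 6 (0.96) passed with the high set alone, as did that from day 6 to 8 (-3.00), which also passed with array weights. The fit with the high set alone holds no null day 8 array. With 1 array left out, the day 6 difference ran from -0.79 to -0.24, the day 8 difference from -2.47 to 3.30, the null change from day 6 to 8 from -5 to 0.77, the Fl/Fl change from day 6 to 8 from -3.36 to -2.64, and the differences of the steps from -6.27 to -5.75 and from 5.32 to 5.89. The cause of these shifts was not tested. Replicate numbers are shared between the genotypes, and the deviations of same-numbered arrays gave r from -0.199 to 0.259 over 10 pairs, 2 of them over 0.1. The 2 Fl/Fl arrays of a day deviate from their mean as mirror images, so the pairs are not separate checks. The labels do not say whether same-numbered arrays shared more than a number. With the replicate block 2 of the 9 genes were called in the average over days (16.5% of all genes), where Cyp26a1 was -1.08 (adjusted p = 0.132), Crabp2 -0.43 (adjusted p = 0.27) and Rara 0.28 (adjusted p = 0.178), and Rarg passed at day 4 (0.62, adjusted p = 0.0228). Groups of 2 arrays limit all of these results.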
